A study of Mus musculus with 8 samples.

Results

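Rapamycin added to loratadine was compared with loratadine alone in 4 of the 8 RNA libraries of the series, chosen by their treatment labels. Of these, 2 came from tumors given both drugs and 2 from tumors given loratadine alone. The remaining 4 libraries, from vehicle and rapamycin tumors, entered the estimate of the spread and gave the same difference without loratadine. Of 35539 listed genes, the 15095 with at least 1 TPM (a length-corrected share of all transcripts in a library) in at least 2 of the 8 libraries were tested.

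All tumors grew from 105K cells, a single Tsc2-null mouse line, in immunocompetent female C57BL/6J mice that were bought at 6 weeks of age and, by the labels, were age-matched. Loratadine was given, on alternate days by the study's methods, at 25 mg/kg/day and rapamycin at 0.25 mg/kg/day, both in carboxymethylcellulose, the vehicle of the control tumors. The combined group (tumors A3L and C1R) received both doses, the loratadine group (B3R and F3R) only the first, the rapamycin group (D1L and G3L) only the second, and B1L and F5L received vehicle. The codes name cage, animal and side, and no cage was shared by the combined and the loratadine tumors, so cage and the addition of rapamycin cannot be told apart. Vehicle and loratadine tumors shared cages B and F, and cage was in no model. The study's methods give oral loratadine and subcutaneous tumors, whereas the labels give intraperitoneal loratadine and mammary tumors. The methods also state that treatment with rapamycin, alone or combined, began at larger tumor volumes than the single treatments with other drugs, so the starting volume and the addition of rapamycin cannot be told apart. Because the files hold TPM, the read depth of each library is unknown.

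Loss of TSC2 removes the brake on RHEB, which activates mTORC1, the kinase complex that matches protein, nucleotide, lipid and glucose metabolism to growth signals. Its known transcriptional arms run through ATF4 (amino acid synthesis), HIF1A (glycolysis) and the SREBP factors (sterols and fatty acids), and it holds back TFEB and TFE3, which drive lysosomal genes. Rapamycin binds FKBP12 and inhibits mTORC1 in part. Loratadine blocks the histamine H1 receptor, whose gene Hrh1 lay between 0.598 and 1.12 TPM in the 4 tumors compared and did not pass the filter.

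The label of origin was checked against lineage genes. Pax8, a transcription factor of the kidney tubule, was at 23.9 to 51.6 TPM in the 4 tumors. The milk protein gene Wap was listed at 0 in each of them, and Csn2 and Lalba stayed at or below 0.264 TPM. Another milk protein gene, Csn3, was at 11.7 and 9.87 TPM with loratadine and at 8.69 and 10.7 TPM with both drugs. Of 13 mammary genes 6 passed the filter, and the list summed to between 18.7 and 34.9 TPM in the 4 tumors. Tsc2 itself was at 52.7 and 53.8 TPM with loratadine and at 72.6 and 52.1 TPM with both drugs. A TPM summed over the whole gene does not show which part the cells lack, and host cells carry the gene, so this value checks no label.

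No gene passed the test between both drugs and loratadine. With limma on log2(TPM + 1), 0 of 15095 genes (0%) had a Benjamini-Hochberg adjusted p under 0.05, the smallest adjusted p being 0.0695, while 2204 genes (14.6%) had an unadjusted p under 0.05, of which 1291 were higher and 913 lower with both drugs. The 2 tumors of a group were also apart from each other. A log2 difference of at least 1 separated B3R from F3R in 1061 genes (7.03%) and A3L from C1R in 908 genes (6.02%), against 1286 genes between the group means. Between groups, C1R differed by that much from B3R in 1021 genes, and A3L differed from F3R in 2466. By their codes the 2 tumors of a group came from different cages, and the tests measure the spread between them.

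The values of the 4 tumors were therefore also counted by whether both combined tumors lay on one side of both loratadine tumors. Both lay above in 5095 genes (33.8% of those tested) and below in 3122 genes (20.7%). With a log2 difference between the group means of at least 1 as well, 657 genes (4.35%) lay above and 502 (3.33%) below. The split depended on the scaling. The median log2 difference of all genes was 0.08 as deposited and 0.00 after median-of-ratios scaling, under which 4041 genes lay above and 4102 below, or 509 and 572 with a log2 difference of at least 1. Quantile normalization gave 4019 above and 3811 below, or 488 and 621. These shares are the background for the counts of the gene groups that follow, and each log2 difference is of log2(TPM + 1), which understates differences of genes with low TPM.

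Predicted genes and pseudogenes aside, the 5 genes with the smallest p that were lower with both drugs were Asns, Gsta4, Gsta1, Adssl1 and Gla. Asns, which makes asparagine and is a standard target of ATF4, was at 103 and 103 TPM in the loratadine tumors B3R and F3R and at 33.5 and 39.3 TPM in the combined tumors A3L and C1R. The log2 difference was -1.48 (SE 0.15, limma adjusted p = 0.0695). Asns lies on chromosome 6 at 7625169 to 7643254 in NCBIM37 (mm9), and the 38 bases before its RefSeq start in GRCm38.p6 (chr6:7693210-7693247, minus strand) hold the C/EBP-ATF element through which amino acid lack is known to act on this gene. They are printed because they carry the element, TGATGNAA, in capitals.
Asns: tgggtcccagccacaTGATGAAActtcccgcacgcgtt
Gsta4 and Gsta1 encode alpha-class glutathione transferases. Gsta4 was at 73.2 and 80.5 TPM with loratadine and at 23.4 and 17.6 TPM with both drugs, a log2 difference of -1.87 (SE 0.20, limma adjusted p = 0.0695). Gsta1 was at 16.3 and 13.5 TPM against 0.901 and 0.807 TPM, 17.5 times lower in mean TPM with both drugs. Members of this family are close copies of each other, so reads may be shared between them. Adssl1, a muscle-type enzyme of AMP synthesis, was at 37.6 and 40.2 TPM with loratadine and at 14.8 and 15.03 TPM with both drugs. Gla, the lysosomal alpha-galactosidase, was at 39.5 and 34.7 TPM against 12.04 and 13.0 TPM. That the groups do not overlap and that p is small were conditions for naming these 5 genes. The limma adjusted p of Gsta1, Adssl1 and Gla was 0.102, 0.102 and 0.130.

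Among the genes higher with both drugs, the 5 with the smallest p were Angptl7, Pth1r, Chrdl2, Prex2 and Kng2. Angptl7, a secreted angiopoietin-like protein, was at 0.422 and 0.387 TPM with loratadine and at 7.97 and 13.3 TPM with both drugs, a log2 difference of 3.01 (SE 0.32, limma adjusted p = 0.0695). Chrdl2, a chordin-like antagonist of BMP ligands, was at 0.385 and 0.676 TPM against 17.99 and 9.07 TPM. Pth1r, the receptor of parathyroid hormone and its related peptide, was at 4.66 and 3.85 TPM against 34.8 and 27.8 TPM, 7.36 times higher in mean TPM with both drugs. That both combined tumors lie above both loratadine tumors was a condition for naming each of the 5 genes. Prex2, an exchange factor for RAC, was at 2.46 and 2.38 TPM with loratadine and 12.7 and 16.5 TPM with both drugs. Kng2, a kininogen gene, was at 3.84 and 1.004 TPM against 48.0 and 33.8 TPM, with the largest log2 difference of the 10 genes, 3.73 (SE 0.47, limma adjusted p = 0.102).

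**Figure D1:**
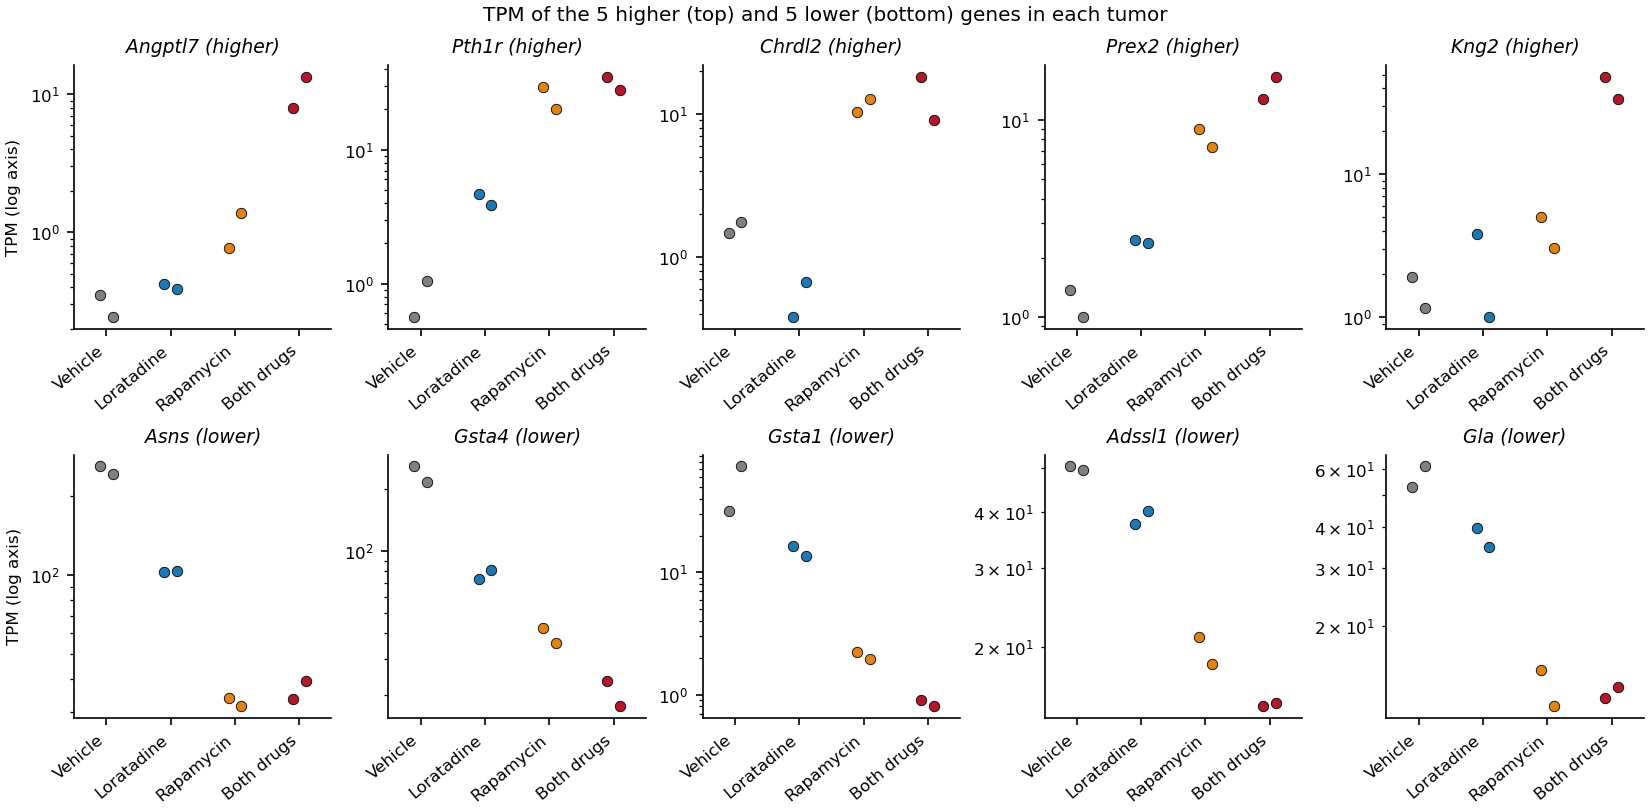
TPM on a log axis (axes differ between panels) of the 5 higher and 5 lower genes with the smallest p, with each point 1 tumor and 2 tumors per treatment. Asns was at 103 TPM in both loratadine tumors and below 40 TPM in both combined tumors, and Angptl7 and Kng2 were high only in the 2 combined tumors among the 8 plotted.

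Genes of cell division had the lowest median difference of the 36 lists examined. All 28 tested genes of mitotic entry and chromosome segregation were lower in both combined tumors than in both loratadine tumors (100%, against 20.7% of all genes), 27 of them by a log2 difference of at least 1. The median log2 difference was -2.24, against 0.08 for all genes, and 0 of the 28 passed the test. Foxm1, the transcription factor of the G2 and M phase program, was at 22.7 and 30.0 TPM with loratadine and at 4.52 and 7.93 TPM with both drugs (log2 difference -1.95, SE 0.33, limma adjusted p = 0.163). Ccnb1, the cyclin of mitotic entry, was at 52.0 and 68.8 TPM against 2.80 and 16.4 TPM. Mki67, the Ki-67 proliferation antigen, was at 29.7 and 54.6 TPM against 3.45 and 17.2 TPM. Within each group the order was the same in the whole list, with A3L below C1R and B3R below F3R in 28 of 28 genes. C1R still lay below both loratadine tumors in 28 of 28.

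The 2 combined tumors therefore differed in how far they lay from loratadine alone. The mean level of the list, as log2(TPM + 1), was 5.12 in B3R and 5.77 in F3R, and 2.34 in A3L and 4.14 in C1R. Without A3L, which leaves only tumors of the right side, the median log2 difference was -1.31, and without C1R it was -3.18. Leaving out a loratadine tumor gave -2.59 without B3R and -1.87 without F3R. A3L is also the only left-side tumor of the 4, and its side cannot be told apart from its other properties.

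Promoter stretches of this list are printed for Ccnb1 and Mki67, since the CCAAT box and the CHR element (TTTGAA or TTCGAA) are the known binding sites of the NF-Y and DREAM or MuvB complexes at G2 and M phase genes. Of 24 promoter windows that RefSeq's table in GRCm38.p6 holds for 23 genes of the list, 21 (87.5%) contained CCAAT on either strand in the 250 bases before the start, against 33.8% of all 32851 windows. TTTGAA was in 8 of the 24 (33.3%, against 16.0% of all) and TTCGAA in 2 (8.33%, against 1.34%). A CCAAT match and a match of the CHR letters can share a base at their ends, and a window with several motifs counts for each. The stretches below lie on the minus strand, Ccnb1 at chr13:100786534-100786600 and Mki67 at chr7:135716457-135716582, with matches on either strand in capitals (CCAAT read on the other strand is ATTGG).
Ccnb1: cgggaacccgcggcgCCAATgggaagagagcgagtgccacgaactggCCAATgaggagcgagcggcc
Mki67: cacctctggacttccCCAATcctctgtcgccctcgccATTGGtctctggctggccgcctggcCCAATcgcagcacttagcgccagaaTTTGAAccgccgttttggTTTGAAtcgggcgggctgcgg
Ccnb1 has 2 CCAAT boxes, which begin 99 and 67 bases before the start. Mki67 has 3 of them, and its 2 TTTGAA matches begin 116 and 98 bases before the start. A match is a description of the letters and not a measured binding site.

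DNA replication genes lay on the same side, by less. Of 32 tested, 28 were lower in both combined tumors (87.5%, against 20.7% of all genes) and 1, the replication fork helicase factor Cdc45, was higher in both, with a median log2 difference of -1.23. Rrm2, the small subunit of ribonucleotide reductase, was at 118 and 176 TPM with loratadine and at 10.9 and 30.5 TPM with both drugs (log2 difference -2.90, SE 0.50, limma adjusted p = 0.163). Uhrf1, which carries DNA methylation through replication, was at 34.1 and 50.3 TPM against 8.29 and 16.7 TPM. Rrm2 and Uhrf1 were named for their small p, so the separation of their groups is no separate result. In both genes C1R lay nearer to the loratadine tumors than A3L. The median was -0.88 without A3L and -0.79 without F3R. Of 20 genes of the pentose phosphate path and nucleotide synthesis, 10 lay below and 3 above, and the median of -0.25 was -0.40 without B3R.

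Glucose metabolism and the hypoxia response lay lower in both combined tumors, with no such gap between A3L and C1R. Of 19 genes of glucose uptake and glycolysis, 17 were lower in both combined tumors (89.5%), 10 of them by a log2 difference of at least 1, and the median was -1.08. Pgk1, which makes ATP in glycolysis, was at 719 and 1232 TPM with loratadine and at 292 and 290.2 TPM with both drugs, a log2 difference of -1.69 (SE 0.26, limma adjusted p = 0.146). Ldha, which turns pyruvate into lactate, was at 1086 and 1747 TPM against 471 and 563 TPM. Slc2a1, the glucose transporter GLUT1, was at 101 and 168 TPM against 48.2 and 35.3 TPM. The combined tumors were closer to each other than the loratadine tumors were in Pgk1, Ldha and Slc2a1. These genes were named for their small p, so the lack of overlap between their groups is no separate result. Of 20 genes of the hypoxia response, which include Hif1a itself and 3 genes also in the glycolysis list (Slc2a1, Pdk1 and Pfkfb3), 14 lay below (70.0%) and 1 above, with a median of -0.91. Egln3, a prolyl hydroxylase that HIF induces, was at 110.5 and 137 TPM with loratadine and at 38.5 and 27.2 TPM with both drugs (log2 difference -1.90, SE 0.26, limma adjusted p = 0.130).

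The core of the HIF binding site, ACGTG, was in 15 of 25 windows of the hypoxia list (60.0%) and in 11 of 27 of the glycolysis list (40.7%), against 16.6% of all windows. The variant GCGTG was in 13 of 25 (52.0%) and 13 of 27 (48.1%), against 28.2%. A match of one variant can share an end base with a match of the other. The stretches with ACGTG, or CACGT on the other strand, are shown for the genes just described, in GRCm38.p6. They are Pgk1 at chrX:106186935-106186988 (plus strand), Ldha at chr7:46845644-46845789 (plus strand) and Egln3 at chr12:54204084-54204118 (minus strand), with matches in capitals.
Pgk1: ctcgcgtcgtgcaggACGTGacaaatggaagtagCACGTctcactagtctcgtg
Ldha: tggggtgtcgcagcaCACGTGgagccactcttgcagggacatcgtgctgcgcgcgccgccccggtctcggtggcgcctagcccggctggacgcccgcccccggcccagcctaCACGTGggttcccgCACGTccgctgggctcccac
Egln3: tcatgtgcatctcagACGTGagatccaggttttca
In Ldha the run CACGTG holds the core on both strands, so that 5 matches fall in 3 places. RefSeq lists a second Ldha start, whose window holds GCGTG and no ACGTG.

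Sterol synthesis was the metabolic list with the lowest median. Of 23 genes, 20 were lower in both combined tumors (87.0%), 16 of them by a log2 difference of at least 1, and the median was -1.46. Insig1, the sterol sensor that retains SREBP in the endoplasmic reticulum and is itself an SREBP target, was at 196 and 161 TPM with loratadine and at 30.4 and 51.5 TPM with both drugs (log2 difference -2.14, SE 0.34, limma adjusted p = 0.146). Sc5d, a late desaturase of the pathway, was at 60.3 and 49.5 TPM against 15.9 and 20.9 TPM. Msmo1, a sterol oxidase, was at 212 and 185 TPM against 46.7 and 67.4 TPM. These 3 genes were named for their small p in this comparison, so the separation of their groups is no separate result. Loratadine tumors were not simply at the vehicle level here. The mean log2(TPM + 1) of the list was 5.97 and 5.64 with loratadine and 5.09 and 5.53 with vehicle. Insig1 was at 63.4 and 88.2 TPM with vehicle, below both loratadine tumors. The sterol element TCACNCCAC was in 1 of 18 windows of the list (5.56%, against 1.05% of all), and no sterol promoter is printed. Fatty acid synthesis genes differed less, with 11 of 16 below (68.8%), none of them by a log2 difference of 1 or more, and a median of -0.56. Fads2, a fatty acid desaturase, was at 98.2 and 126 TPM against 61.1 and 65.3 TPM. That median was -0.29 without B3R and -0.36 without C1R.

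Genes of the ATF4 program and of serine and one-carbon metabolism were lower with both drugs in 18 of 23 cases (78.3%) and higher in 2, with a median log2 difference of -0.88. Aldh1l2, a mitochondrial enzyme of folate metabolism, was at 26.3 and 48.2 TPM with loratadine and at 3.04 and 5.11 TPM with both drugs, the lowest log2 difference of the list at -2.88 (SE 0.46, limma adjusted p = 0.146). Mthfd1l, another mitochondrial folate enzyme, was at 34.1 and 49.1 TPM against 8.05 and 12.4 TPM. Psph, the last enzyme of serine synthesis, was at 52.3 and 64.9 TPM against 18.4 and 20.4 TPM, and the stress cytokine gene Gdf15 was at 266 and 446 TPM against 88.9 and 87.0 TPM. These genes were named mostly for their small p, so the groups being apart in them is no separate result. The exception in direction with the largest difference was Cbs, which joins homocysteine and serine, with a log2 difference of 2.16. The element TGATGNAA, capitals in the Asns stretch, was in 6 of 26 windows of this list (23.1%, against 3.45% of all). Of 17 amino acid transporters, 9 lay below (52.9%) and 2 above, with a median of -0.50 that was -0.06 without F3R and -0.80 without B3R. Slc7a5, a subunit of the leucine carrier, was at 47.6 and 71.2 TPM against 32.4 and 28.8 TPM.

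**Figure D2:**
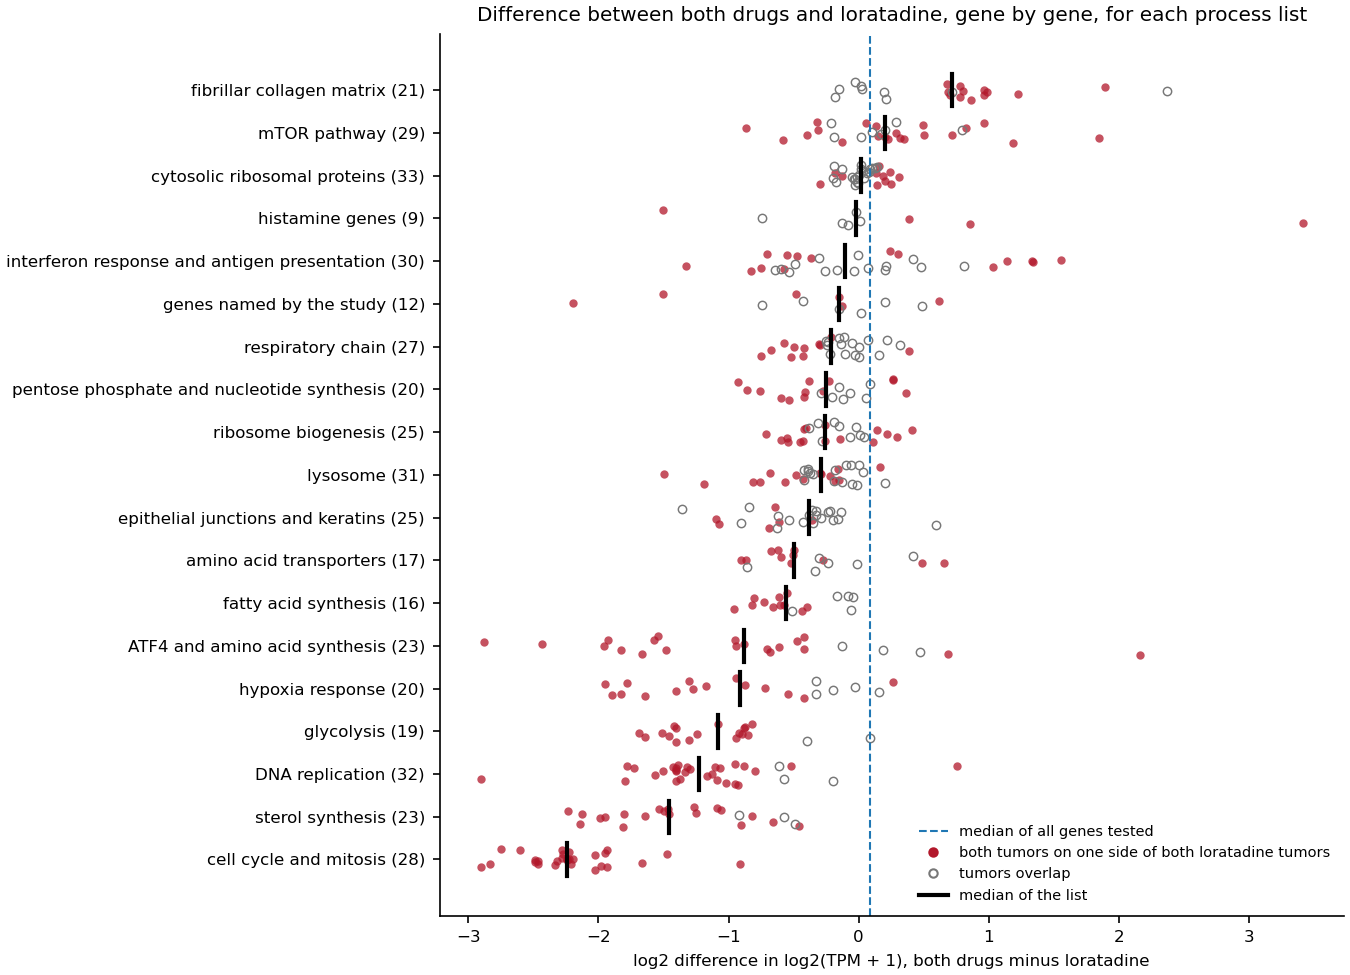
Each point is 1 gene, placed by its log2 difference in log2(TPM + 1) between both drugs and loratadine, for 19 lists (number of tested genes in brackets). Filled points are genes whose combined tumors both lay on one side of both loratadine tumors, open points are genes whose tumors overlap, black bars are list medians and the dashed line is the median of all genes, 0.08. The cell cycle list had the lowest median (-2.24) and the collagen list the highest (0.72).

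The mTOR pathway's own subunits and relays were spread to both sides. Of 29 genes, 15 were higher in both combined tumors (51.7%, against 33.8% of all genes) and 6 lower (20.7%, the same as the share of all genes), and the median was 0.20. Deptor, an inhibitor that binds mTOR, was at 5.09 and 2.81 TPM with loratadine and at 20.9 and 12.8 TPM with both drugs (log2 difference 1.85, SE 0.47, limma adjusted p = 0.223). Igf1r, the growth factor receptor that feeds the pathway, was at 16.8 and 11.3 TPM against 28.1 and 27.8 TPM. Mtor itself was at 15.2 and 11.9 TPM against 19.0 and 20.1 TPM, and Eif4ebp1, the translation repressor that mTORC1 phosphorylates, was at 214 and 333 TPM against 143 and 148 TPM. Deptor, Igf1r and Mtor lay above and Eif4ebp1 below in both combined tumors. Of 31 lysosomal genes, 14 were lower in both (45.2%) and 1 higher, with a median of -0.29 that was -0.09 without B3R. Atp6v1h, a subunit of the proton pump, was at 128 and 109.5 TPM against 65.3 and 74.1 TPM. Gpnmb, a TFE3 target and a marker of lymphangioleiomyomatosis, the lung disease of TSC2 loss, was at 333 and 122 TPM against 91.5 and 84.3 TPM.

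Transcripts of the ribosome itself lay close to their levels with loratadine. Of 33 cytosolic ribosomal protein genes, 8 were higher (24.2%) and 3 lower (9.09%) in both combined tumors, both below the share of all genes, and log2 differences ran from -0.29 to 0.31. Their median was 0.02 as deposited, -0.08 with median-of-ratios scaling and -0.11 without B3R, so its sign depended on these choices. Rps6, the S6 protein whose phosphorylation reports mTORC1 activity, was at 915 and 1202 TPM with loratadine and at 1023 and 1097 TPM with both drugs, within the loratadine range. Messenger RNA says nothing of its phosphorylation. Of 25 factors of ribosome biogenesis, 11 lay below (44.0%) and 5 above, with a median of -0.26 that was -0.12 without A3L and -0.14 without F3R. Pes1, a nucleolar factor of the large subunit, was at 72.8 and 83.9 TPM against 52.0 and 54.9 TPM. Of 27 nuclear genes of the respiratory chain, 10 lay below (37.0%) and 1 above, and the median of -0.21 was -0.03 without B3R, -0.11 without A3L and -0.38 without F3R. Cox5a, a subunit of cytochrome oxidase, was at 529 and 446 TPM against 264 and 317 TPM.

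**Figure D3:**
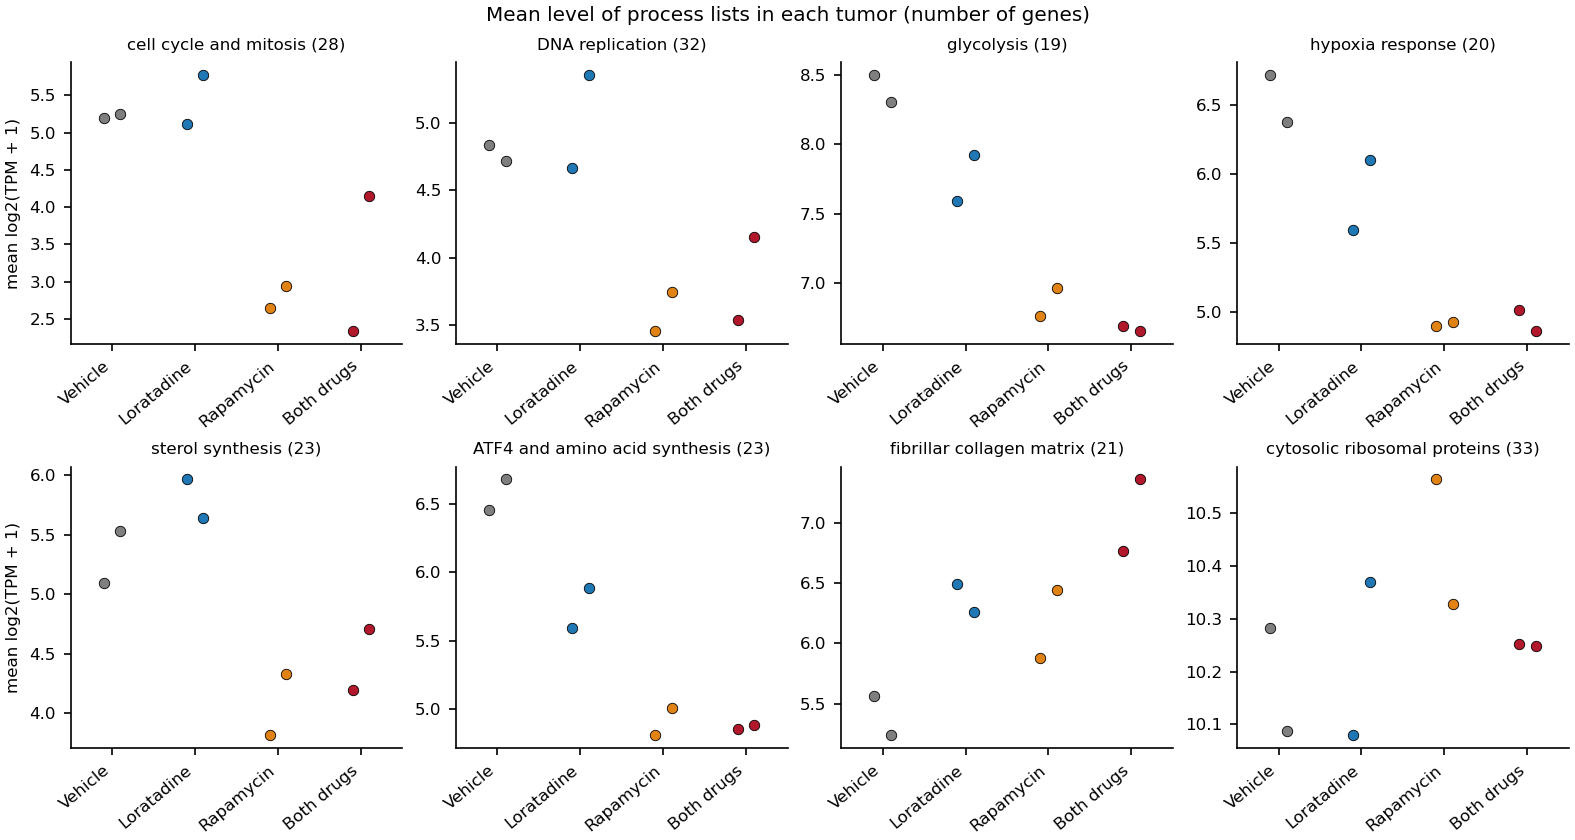
Mean log2(TPM + 1) of 8 lists in each tumor, with 2 points per treatment and vertical axes that differ between panels and do not start at 0. In the cell cycle panel the combined tumors lie at 2.34 and 4.14, below 5.12 and 5.77 with loratadine, and in the ribosomal panel they lie within the range of the loratadine tumors.

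Fibrillar collagens and their partners were the process list with the highest median. Of 21 genes, 12 were higher in both combined tumors (57.1%, against 33.8%) and 0 lower, and the median was 0.72 (0.62 with median-of-ratios scaling). Fmod, a small proteoglycan of collagen fibrils, was at 1.80 and 1.86 TPM with loratadine and at 13.9 and 6.42 TPM with both drugs. Col5a1, a regulator of fibril diameter, was at 27.0 and 23.0 TPM against 40.5 and 62.6 TPM, and Col3a1, a main fibrillar collagen, at 423 and 302 TPM against 541 and 716 TPM. The median was 0.33 without C1R. Dcn, the proteoglycan decorin, was highest in C1R, with 277 and 53.2 TPM with loratadine and 153 and 2624 TPM with both drugs. C1R also held skeletal muscle transcripts. The 14 muscle genes summed to 246.5 TPM there and to between 22.2 and 30.9 TPM in the other 3 tumors, and Acta1, skeletal actin, was at 40.5 TPM in C1R and at or below 1.29 TPM in the others. Of 16 fibroblast and pericyte markers, 4 lay above in both combined tumors (25.0%, below the 33.8% of all genes) and 0 below, and their sum was 4930.4 TPM in C1R and between 1463 and 2179.9 TPM in the other 3. The part of muscle and of these cells in the collagen values was not tested. Loratadine tumors already lay above vehicle in the mean log2(TPM + 1) of the collagen list, at 6.49 and 6.26 against 5.56 and 5.24.

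Epithelial genes overlapped between the groups in most cases. Of 25 genes of junctions, keratins and mucins, 6 lay below (24.0%, near the 20.7% of all genes) and 0 above (against 33.8%). The median of -0.38 was 0.04 without F3R, -0.19 without C1R, -0.75 without A3L and -0.87 without B3R. Krt8, a keratin of simple epithelia, was at 477 and 713 TPM with loratadine and at 282 and 263 TPM with both drugs. Epcam, an epithelial adhesion molecule, was at 26.0 and 62.9 TPM against 44.8 and 19.9 TPM, with overlapping groups and a log2 difference of -0.43 that was 0.20 without F3R and 0.14 without C1R. Vim, the mesenchymal filament vimentin, was at 2703 and 2982 TPM against 1678 and 2471 TPM. Other mesenchymal markers that the study names did not all lie on that side. Twist1 was higher in both combined tumors (log2 difference 0.62), and Snai1 (0.48) and Fn1 (-0.15) overlapped between the groups. Of 12 tubule genes, 5 lay above (41.7%, near the 33.8% of all genes) and 0 below, with a median of 0.78. Pax8 was at 23.9 and 32.2 TPM with loratadine and at 51.6 and 41.5 TPM with both drugs (log2 difference 0.72, SE 0.23, limma adjusted p = 0.249). Hnf4a, a factor of the proximal tubule, was listed at 0 in B3R and at 0.0242 TPM in F3R, and was at 2.99 and 1.67 TPM with both drugs. The median of this list was 0.48 without A3L and 0.50 without either loratadine tumor.

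Histamine genes were of interest because loratadine acts on a histamine receptor. Of 13 genes, 9 were tested. Of these, 3 lay above (33.3%, near the 33.8% of all genes) and 1 below (11.1%, under the 20.7% of all genes), so the list did not stand out. Aoc1, the diamine oxidase that breaks down extracellular histamine, was at 1.33 and 0.0813 TPM with loratadine and at 17.5 and 14.4 TPM with both drugs, a log2 difference of 3.41 (SE 0.46, limma adjusted p = 0.130). It was higher still with rapamycin alone, at 39.6 and 39.4 TPM. Maoa, a monoamine oxidase, was at 59.5 and 64.3 TPM with loratadine and at 19.8 and 22.5 TPM with both drugs, with no overlap. Maob, the isoform that the study ties to histamine breakdown, was at 8.12 and 31.9 TPM against 9.32 and 9.33 TPM. The log2 difference of Maob, -0.75, was 0.18 without F3R. Hdc, which makes histamine, was at 0.955 and 1.56 TPM against 3.81 and 2.397 TPM.

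Transcripts of lymphoid and dendritic cells lay higher in both combined tumors for most markers. Of 18 T and NK cell markers, 13 lay above in both combined tumors (72.2%, against 33.8%) and 0 below, and the 20 genes of the list summed to 57.8 and 38.3 TPM with loratadine and to 103.3 and 101.2 TPM with both drugs. Cd3g, a chain of the T cell receptor complex, was at 6.88 and 4.61 TPM against 17.3 and 13.2 TPM. Lck, the T cell kinase, was at 4.86 and 3.39 TPM against 11.1 and 9.36 TPM (log2 difference 1.14, SE 0.36, limma adjusted p = 0.244). In bulk tumor RNA, more cells of a type and more RNA per cell cannot be told apart. Of 8 dendritic cell markers, 6 lay above (75%) and 0 below, with a median of 0.74 that was 0.43 without F3R. Of 16 macrophage markers, 11 overlapped, 1 lay above (6.25%, against 33.8% of all genes) and 4 below (25%, near the 20.7% of all genes). The one above was Cd14, a receptor for lipopolysaccharide, at 95.9 and 76.6 TPM with loratadine and at 193 and 158 TPM with both drugs. Nos2, the inducible nitric oxide synthase, was at 1.84 and 3.24 TPM against 0.322 and 0.374 TPM, and Arg1 (named after its values were seen), which competes for arginine, was at 11.96 and 219.6 TPM against 10.8 and 5.02 TPM. Interferon and antigen presentation genes were mixed, with 7 of 30 above (23.3%, under the 33.8% of all genes) and 8 below (26.7%, near the 20.7%). Their median of -0.10 was 0.17 without A3L and lay between -0.45 (without C1R) and -0.05 (without F3R) with another library left out. H2-Eb1, a class II chain, was at 691 and 147 TPM against 799.6 and 1109 TPM, the low value being that of F3R.

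Blood vessel transcripts were lower in part. Of 16 endothelial markers, 9 lay below in both combined tumors (56.25%, against 20.7% of all genes) and 0 above (against 33.8%). The median was -0.29, and it was -0.13 without F3R and -0.51 without B3R. Their summed level was 154.9 and 202.9 TPM with loratadine and 134.4 and 158.4 TPM with both drugs, so the sums overlapped. Cdh5, the endothelial cadherin, was at 8.80 and 15.4 TPM against 4.36 and 7.08 TPM. Fat cell transcripts split the combined group. The 14 adipocyte markers summed to 864.9 and 590.0 TPM with loratadine, to 734.0 TPM in A3L and to 137.4 TPM in C1R. Adipoq (named after its values were seen), the fat cell hormone adiponectin, was at 28.5 and 18.2 TPM with loratadine, at 25.8 TPM in A3L and at 0.0942 TPM in C1R. Of the adipocyte markers, 2 of 14 lay below in both combined tumors (14.3%, under the 20.7% of all genes) and 0 above. The part of fat and muscle tissue in the differences above was not tested.

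**Figure D4:**
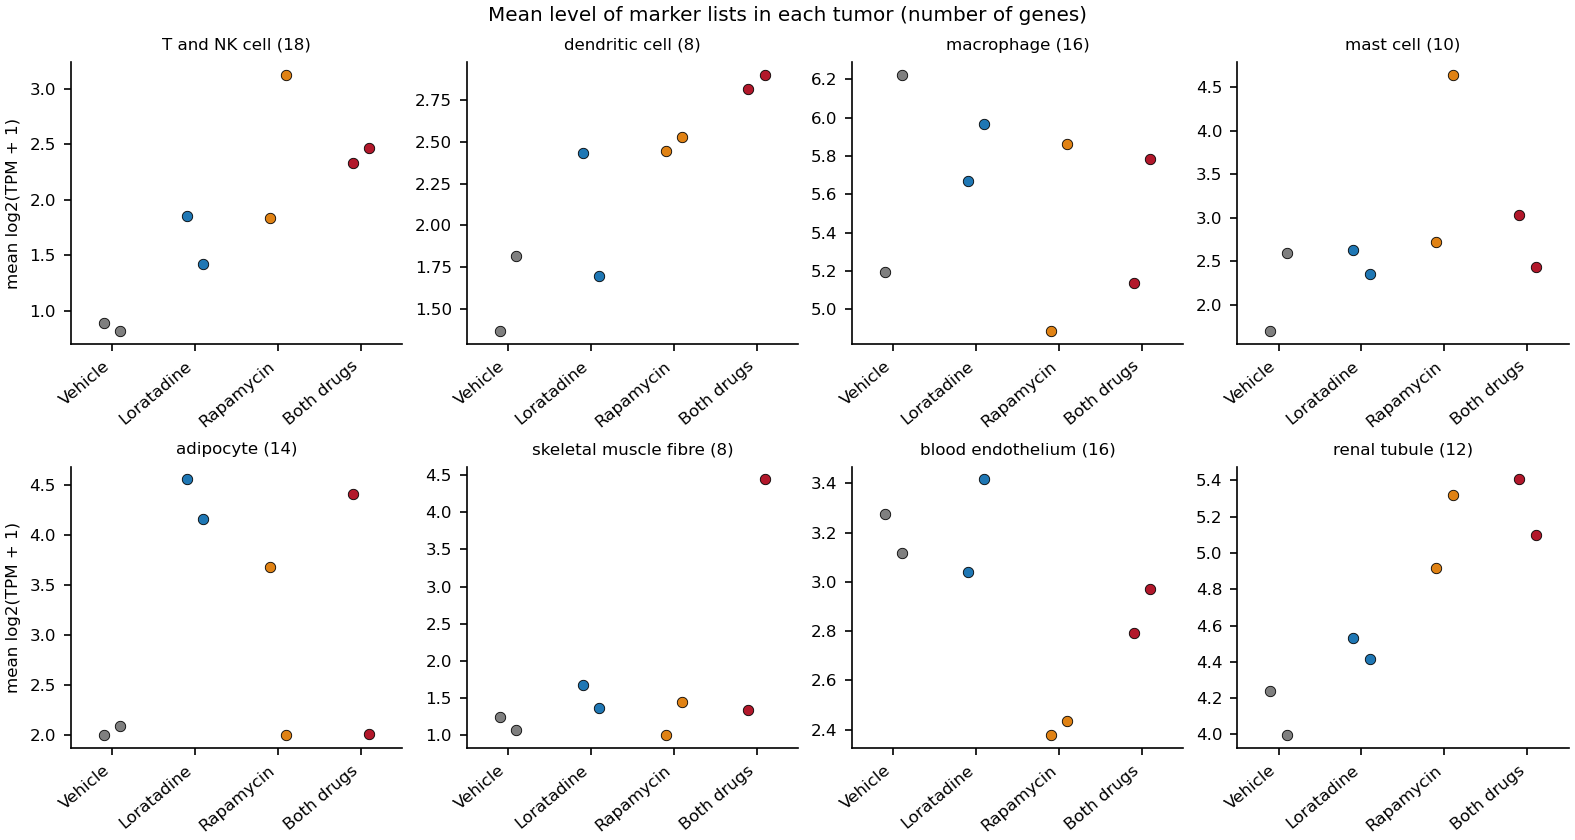
Mean log2(TPM + 1) of 8 marker lists in each tumor, with 2 points per treatment and vertical axes that differ between panels and do not start at 0. Muscle markers stand at 4.44 in C1R and at 1.68 or below in the other 7 tumors, and adipocyte markers at 4.40 in A3L and 2.02 in C1R.

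The difference between both drugs and loratadine could be set beside that between rapamycin and vehicle, which shares no tumor with it. Over 15095 genes the 2 log2 differences had a Pearson correlation of 0.664 and a Spearman correlation of 0.667, given as a description since genes are not independent and all values share the fit. Among the 2204 genes with an unadjusted p under 0.05 in the first, 2137 (97.0%) had the same sign in the second, against 76.8% of all genes. Of the 657 genes above with a log2 difference of at least 1, both rapamycin tumors lay above both vehicle tumors in 497 (75.6%, against 35.5% of all genes) and below in 4. Of the 502 below, 420 (83.7%, against 22.8%) lay below and 7 above.

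The median of the cell cycle list was -2.43 between rapamycin and vehicle and -2.24 between both drugs and loratadine, and that of sterol synthesis -1.50 and -1.46. Not every list kept its sign. In the same order the medians were 0.87 and -0.38 for epithelial junctions and keratins, and 0.60 and -0.92 for adipocyte markers. In these 2 lists most genes overlapped between the combined and the loratadine tumors. The 2 rapamycin tumors were also apart, by a log2 difference of at least 1 in 2057 genes (13.6%). The epithelial mean log2(TPM + 1) was 3.52 in D1L, below both vehicle tumors, and 5.53 in G3L, above both. The adipocyte mean was 3.67 in D1L, above both vehicle tumors, while G3L lay below both. Both rapamycin tumors lay above both vehicle tumors in 5 of 25 epithelial and 8 of 14 adipocyte genes. The mast cell medians were 1.33 and 0.20, and the mast cell mean was 2.72 in D1L and 4.64 in G3L, both above vehicle. Loratadine tumors already stood below vehicle in some lists. In the ATF4 list 14 of 23 genes were lower in both loratadine tumors than in both vehicle tumors, and the medians were -1.85 without loratadine and -0.88 with it. Asns was at 259.9 and 243 TPM with vehicle, 103 and 103 TPM with loratadine, and 33.8 and 31.6 TPM with rapamycin alone, close to the 33.5 and 39.3 TPM of both drugs. The glycolysis means were 7.59 and 7.92 with loratadine and 8.50 and 8.31 with vehicle, with medians of -1.61 and -1.08. The hypoxia means were 5.59 and 6.10 with loratadine and 6.72 and 6.38 with vehicle, with medians of -1.56 and -0.91.

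Whether the difference depended on loratadine was tested gene by gene as an interaction. With limma, 1 of 15095 genes (0.00662%) passed, the predicted gene Gm49450, and 719 (4.76%) had an unadjusted p under 0.05. Gm49450 was at 55.1 and 77.3 TPM in the vehicle tumors and listed at 0 in the other 6, so it was at 0 in both groups of the main comparison. The second smallest adjusted p was 0.224. No gene of the ATF4 list passed. For Asns the interaction was 1.42 (SE 0.21, limma adjusted p = 0.423). Angptl7 and Kng2 had the largest interactions of the 10 genes with the smallest p, 2.35 (SE 0.45, limma adjusted p = 0.721) and 2.75 (SE 0.66, limma adjusted p = 0.925). Angptl7 was at 0.349 and 0.244 TPM with vehicle and 0.768 and 1.39 TPM with rapamycin alone, and Kng2 at 1.90 and 1.15 TPM and at 4.99 and 3.05 TPM, all far below the combined tumors.

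**Figure D5:**
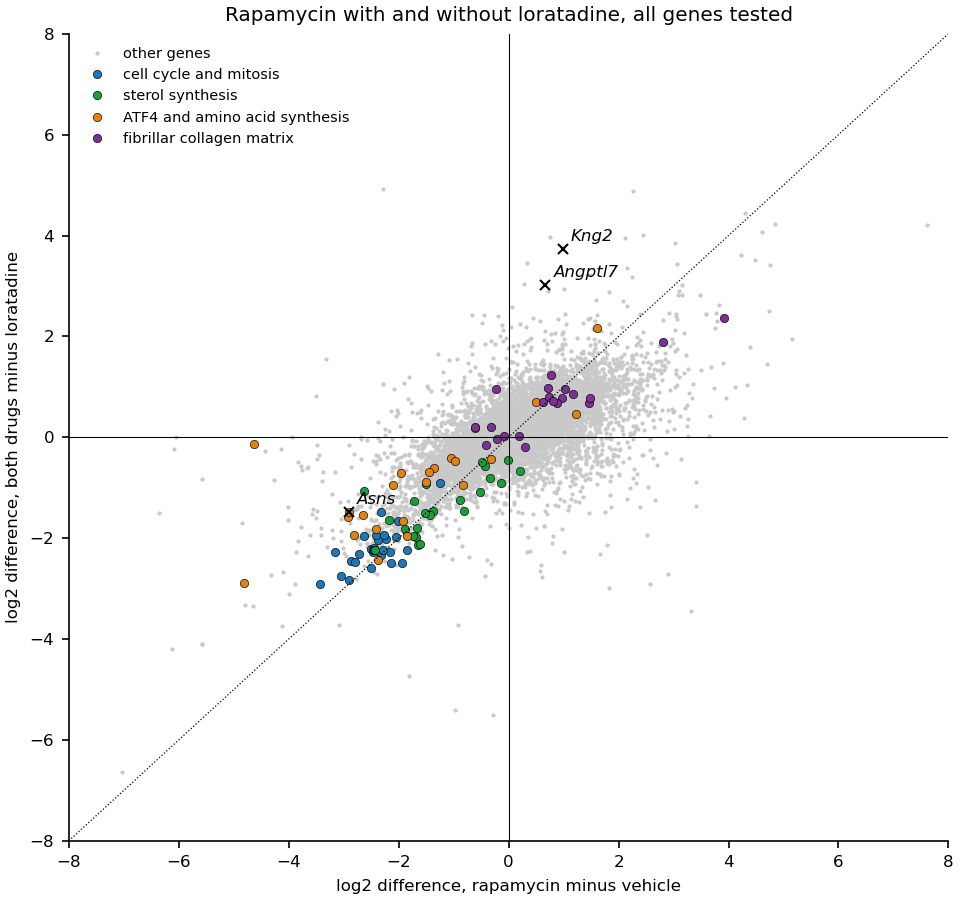
Each point is 1 of 15095 genes, by its log2 difference between rapamycin and vehicle (horizontal) and between both drugs and loratadine (vertical), with the dotted line marking equal differences and 4 lists in color. Points run along the diagonal (Pearson correlation 0.664), the ATF4 genes lie mostly above the line, and Angptl7 and Kng2 stand high at a small horizontal value.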

How the data were processed

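RNA from 8 tumors was sequenced as single-end reads. The authors deposited 2 near-identical tables of TPM (largest difference below 5e-07 TPM), and the first was used. The study's methods describe quantification with Kallisto on mm9 and gene sums with tximport. The submitters' processing notes list bedtools, mm9, SAMtools 0.1.18 and STAR 2.4.0f1 instead, and it is not known here which of them made the TPM. The study applied DESeq2 to counts, which were not used here. TPM keeps no depth, so precision rests on the spread between tumors. Library totals were 993546 to 994645 TPM, and 13251 to 14371 genes reached 1 TPM.

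Groups follow the treatment labels. log2(TPM + 1) was fitted in R 4.3.3 with limma 3.58.1, using 4 group means over all 8 libraries and moderated variances with an intensity trend. Tests were two-sided, with Benjamini-Hochberg adjustment over 15095 genes and a threshold of 0.05, and the fit was checked on simulated data. Counts of genes whose tumors do not overlap, list medians and figures used Python 3.11.15, pandas 2.3.3 and matplotlib 3.10.9. The 36 lists (19 of processes, 17 of cell type markers) use 1 identifier per symbol and were not tested as sets. Gene coordinates are from the NCBIM37 (mm9) annotation, which holds 14140 of the tested identifiers, and promoter sequences from RefSeq's table in GRCm38.p6.

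Named genes are, per direction, the 5 with the smallest p among genes that do not overlap and reach a mean of 5 TPM in the higher group, without predicted genes and pseudogenes, and up to 4 genes of each list with the smallest p. Some genes that the rule takes are not reported here. Other genes are marked as such, check a label or are extremes of a list. The comparison, lists and rule were chosen with earlier results of these data known. The alternatives varied the pseudocount (0.1 or 0.5), the filter (none, or a mean of 5 TPM), the scaling (quantile or median-of-ratios), the limma options (no trend, robust, array weights), the threshold (0.1), the table, the libraries in the fit and each library in turn.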

Additional observations from a re-analysis of the deposited data

Results flagged for a closer look

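Gm49450, a predicted gene, had an interaction of 6.05 on the log2 scale (limma adjusted p = 0.0130), the only one past the threshold. It was at 55.1 and 77.3 TPM in the vehicle tumors and listed at 0 in the other 6, and the call was absent when any 1 library was left out.

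Mtor differed by 0.51 on the log2 scale between both drugs and loratadine, with both combined tumors above both loratadine tumors, while between rapamycin and vehicle it differed by -0.36, with both rapamycin tumors (15.9 and 10.2 TPM) below both vehicle tumors (16.0 and 17.4 TPM). The interaction was 0.86 (SE 0.36, limma adjusted p = 0.925), so a difference between the settings was not shown. Groups of 2 tumors are too small for a check of outlying samples.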

How the results depend on the processing

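The count of genes called between both drugs and loratadine was 0 and became 4 with a pseudocount of 0.1, 2 with 0.5, 16 with no filter, 22 with array weights and 10 at an adjusted p under 0.1. Called higher were 0, 0, 7, 9 and 4 of these and called lower 4, 2, 9, 13 and 6. With 1 library left out the total, and the number called lower, ranged from 0 to 1 (the predicted gene Gm48583, without A3L), and the number called higher was 0. With a mean of at least 5 TPM, either scaling, limma without trend or robust, the second table or only the groups compared it was 0. The interaction called 1 gene, and 0 with a pseudocount of 0.1, with a mean of at least 5 TPM and with each library left out, and 9 with no filter. With array weights the 10 genes named for the smallest p passed, as did Egln3 and Aoc1 (adjusted p 0.0270 to 0.0491), and Asns also passed with no filter, but over all alternatives the adjusted p of these 12 genes reached 0.570 to 0.678. Over 64 named genes, 1187 of the other values kept their direction and side of the threshold, and 8 turned. Leaving out 1 library gave log2 differences from -0.030 (without A3L) to 0.44 for Tsc2, from -0.18 (without B3R) to 0.21 for Rps6, from -1.67 to 0.18 (without F3R) for Maob, from -1.05 to 0.20 (without F3R) for Epcam and from -4.44 to 0.17 (without C1R) for Adipoq. Rps6 was also at -0.035 without C1R and at -0.079 with median-of-ratios scaling, and Epcam at 0.14 without C1R. The cause was not tested.

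No paired analysis was possible because the combined and loratadine tumors share no cage and the replicate numbers are only accession order. Only vehicle and loratadine tumors shared cages, which enter the interaction without a cage term. The depth of the libraries is unknown. Cage, side, starting volume, and fat and muscle content cannot be told apart from the tumors that carry them.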

Other observations

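Among 133 annotated genes (5 TPM or more on average in the higher group) whose groups did not overlap with a log2 difference of at least 2 between both drugs and loratadine, 100 lay on the same side between rapamycin and vehicle, and 19 differed by less than 1 there. Chosen after their values were seen, a few of these were Apoc2, a cofactor of lipoprotein lipase, Olfml1, a secreted olfactomedin-like protein, and Ptgfr, the receptor of prostaglandin F2-alpha. Apoc2 was at 9.63 and 7.21 TPM with loratadine, 282 and 75.8 TPM with both drugs, 8.21 and 13.4 TPM with vehicle, and 36.4 and 9.01 TPM with rapamycin. Olfml1 was at 1.54 and 0.305 TPM with loratadine and at 6.73 and 6.41 TPM with both drugs, and did not exceed 1.43 TPM with vehicle or rapamycin. Ptgfr was at 1.21 and 0.0472 TPM against 6.62 and 4.62 TPM, and did not exceed 1.06 TPM in the other 4 tumors. The interactions were 3.23, 1.28 and 1.44 on the log2 scale, each with a limma adjusted p of 0.925.

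Umod (also named after its values were seen), the uromodulin of the thick ascending limb, was at 19.2 and 38.2 TPM with loratadine and at 62.6 and 85.3 TPM with both drugs, at or below 0.666 TPM in 3 tumors without loratadine and at 144 TPM in G3L. The smaller marker lists are set against 33.8% of all genes above and 20.7% below. Of 7 neutrophil genes, 3 lay above (42.9%) and 1 below (14.3%). Of 10 mast cell genes, 2 lay above (20%) and 0 below, and of 5 red cell genes, 0 lay above and 1 below (20%). Lists this short say little beside those shares.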
